A study of Mus musculus with 15 samples.

Results

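The neutrophil granule and calprotectin genes are 10 genes whose products fill the granules and cytosol of neutrophils. They are S100a8, S100a9, Ngp, Camp, Ltf, Lcn2, Retnlg, Mpo, Elane and Prtn3. They were taken by symbol from the 36528 Entrez gene IDs listed for each library, and each of the 10 was found. All 10 also passed the filter on low counts, with 18370 genes left in all. Transcripts were measured by RNA-seq of polyA RNA from mouse small intestine at E16.5, late in gestation, in 15 libraries of 3 genotypes with 5 libraries each. Every genotype lacked Mlkl, the pseudokinase that carries out necroptosis, so the controls carried that deletion too. The genotypes differed in Casp8, which encodes the initiator caspase of death receptor signalling: wildtype Casp8 with MLKL knockout (called wildtype below), Casp8 MLKL double knockout (knockout), and Casp8 C362A knockin with MLKL knockout (C362A), in which the catalytic cysteine is replaced. The labels give the tissue of the C362A libraries the diagnosis inflammation and that of the others normal. Strain, sex, litter and the number of animals behind a library are not in the labels, so p-values measure the spread between these libraries, which may be technical.

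Neutrophils load their granules in a fixed order while they mature. Promyelocytes make the azurophil (primary) granule proteins, among them myeloperoxidase and the serine proteases elastase and proteinase 3, and myelocytes then make the specific (secondary) granule proteins, among them lactoferrin, cathelicidin and lipocalin 2. S100A8 and S100A9 form calprotectin, a cytosolic complex that binds zinc and manganese, and its level in stool is a clinical measure of gut inflammation. Before birth, blood formation takes place mostly in the fetal liver, and S100A8, S100A9 and lipocalin 2 can also be made by inflamed epithelium.

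The genes lie at few places in the genome (GRCm38.p6, RefSeq). S100a8 (Entrez 20201, chr3:90669071-90670034, plus strand) and S100a9 (Entrez 20202, chr3:90692630-90695721, minus strand) are neighbours, with 22595 bases and 0 coding genes between them. Prtn3 (Entrez 19152, chr10:79879667-79883174, plus strand) and Elane (Entrez 50701, chr10:79886312-79888216, plus strand) are likewise neighbours, 3137 bases apart. Camp (Entrez 12796, chr9:109847377-109849456, minus strand), Ngp (Entrez 18054, chr9:110419808-110423012, plus strand) and Ltf (Entrez 17002, chr9:111019292-111042766, plus strand) share a stretch of chromosome 9, with 570351 bases between Camp and Ngp and 596279 bases between Ngp and Ltf. Mpo (Entrez 17523, chr11:87793784-87804412, plus strand), Retnlg (Entrez 245195, chr16:48872608-48874498, plus strand) and Lcn2 (Entrez 16819, chr2:32384637-32387739, minus strand) lie alone. Mpo overlaps the gene model Gm34064, and reads of the 2 cannot be told apart by strand, but Gm34064 had at most 3 counts in a library.

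Because most of these genes varied together from library to library, the 250 bases before each gene's start (RefSeq promoters) were searched on both strands for letters that granulocyte transcription factors are known to prefer. GAGGAA, the core of PU.1 sites, was present before 6 of the 10 genes (S100a8, Ltf, Lcn2, Mpo, Elane and Prtn3) and in 23.3% of 32851 promoters. The longer GAGGAAGT, which was chosen after the sequences were seen and lies over a GAGGAA match each time, was present before S100a8 and the 3 azurophil genes and in 2.44% of all promoters. TTGCNNAA, a C/EBP pattern, was present before S100a9, Ngp, Ltf, Lcn2 and Retnlg and in 9.56% of all promoters. TGTGGT, a RUNX pattern, matched S100a9 and 14.05% of promoters, TATAAA matched S100a8 and 12.4%, and Camp held none of the 5 patterns. The GAGGAAGT matches are shown first, in capitals and in the direction of the gene (in S100a8 the match is on the opposite strand and reads ACTTCCTC), for S100a8 (chr3:90668877-90668928), Mpo (chr11:87793538-87793589), Elane (chr10:79886205-79886256) and Prtn3 (chr10:79879550-79879601). The C/EBP matches follow, in capitals, for S100a9 (chr3:90695928-90695971), Ngp (the farther of 2, chr9:110419648-110419699), Ltf (chr9:111019195-111019246), Lcn2 (chr2:32387926-32387977) and Retnlg (chr16:48872358-48872391), with those of Ltf and Retnlg on the opposite strand. A match describes letters in this window and shows no binding.
S100a8: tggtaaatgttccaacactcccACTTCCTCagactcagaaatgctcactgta
Mpo: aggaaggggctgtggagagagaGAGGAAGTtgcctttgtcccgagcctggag
Elane: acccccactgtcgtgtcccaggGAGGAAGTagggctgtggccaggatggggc
Prtn3: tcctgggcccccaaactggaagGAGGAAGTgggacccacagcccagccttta
S100a9: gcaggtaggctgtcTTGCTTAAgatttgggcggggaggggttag
Ngp: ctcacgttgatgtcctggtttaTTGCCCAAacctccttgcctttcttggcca
Ltf: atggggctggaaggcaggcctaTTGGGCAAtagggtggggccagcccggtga
Lcn2: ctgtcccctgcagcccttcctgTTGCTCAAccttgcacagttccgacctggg
Retnlg: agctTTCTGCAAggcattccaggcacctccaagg

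Libraries held 31896399 to 38532127 counts, and Casp8 had 69.9 ± 3.41 CPM in C362A, 14.4 ± 1.65 in the knockout and 70.1 ± 5.97 in wildtype (CPM, a library's counts scaled to the same TMM-adjusted total of 1e6, mean ± SD, n = 5). The C362A change leaves the transcript in place, so its counts do not check that label. Of the neutrophil surface genes, Ly6g had 0 to 11 counts in a library and Cxcr2 6 to 37. Promyelocytes and myelocytes make the granule proteins, so their transcripts do not show that mature neutrophils were present. How mature the cells were was not tested. Some libraries held transcripts of tissues next to the gut. The summed level of 12 hepatocyte markers ran from 76.9 to 325 CPM in C362A, from 76.5 to 885 in the knockout and from 61.0 to 559 in wildtype, and C362A library 4 had 265 CPM of 15 squamous epithelium markers against 10.9 to 18.8 in the knockout and wildtype libraries. Library numbers follow accession order and pair nothing.

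None of the 10 genes passed the test between genotypes after adjustment over all tested genes. At an edgeR adjusted p of 0.05, 0 passed in C362A against wildtype, knockout against wildtype or C362A against knockout. Of all tested genes, 0.0817%, 0.0381% and 0.0109% did. The means of the 10 genes were all higher in C362A than in wildtype, with a median log2 fold change of 0.93 (range 0.33 to 1.74). They were also all higher in the knockout than in wildtype, with a median of 0.58 (range 0.14 to 0.83). Without knockout library 3 the knockout median was 0.19, and without C362A library 4 the C362A median was 0.54. Both comparisons use the same wildtype libraries. By the median of 5 libraries, C362A was lower than wildtype for S100a8 (3.65 and 4.06 CPM), S100a9 (6.41 and 8.0) and Ngp (4.22 and 4.85). It was also lower for Ltf (3.76 and 4.74) and higher for the other genes. The summed CPM of the 10 genes had a median of 25.7 in C362A and 29.9 in wildtype. The levels followed the library more than the genotype: C362A libraries 3 and 4 and knockout library 3 were high for nearly every gene, and C362A library 5, knockout library 4 and wildtypes 1 and 5 were low. Retnlg, a resistin-like protein of neutrophils, had the largest fold of the 10 in C362A against wildtype and the smallest in the knockout against wildtype, and Prtn3 varied least between libraries. In whole tissue, fewer neutrophils and less RNA per neutrophil cannot be told apart.

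**Figure D1:**
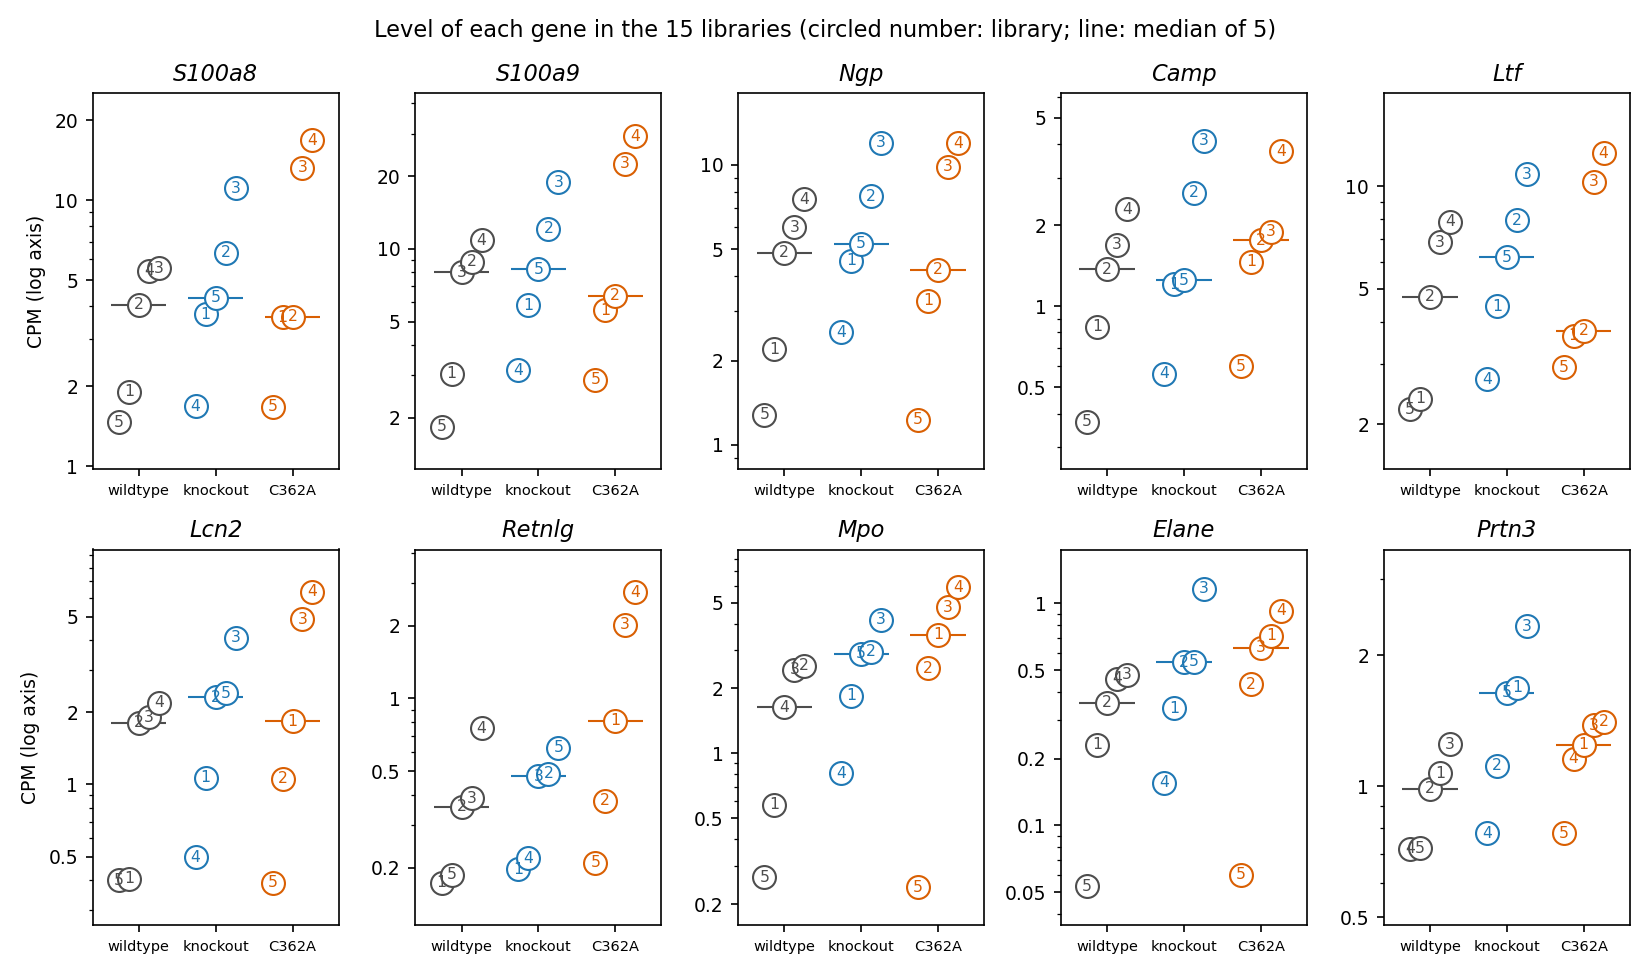
Each panel gives 1 gene's level in CPM (log axis) in the 5 libraries of wildtype, knockout and C362A, with the library number in the circle and a line at the median of 5. The 3 genotypes overlap in every panel, and C362A libraries 3 and 4 and knockout library 3 sit near the top of most panels.

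S100a8, the smaller calprotectin subunit, stood at 3.64, 3.65, 13.2, 16.8 and 1.68 CPM in C362A libraries 1 to 5. In knockout libraries 1 to 5 it stood at 3.74, 6.36, 11.1, 1.68 and 4.29 CPM, and in wildtype libraries 1 to 5 at 1.91, 4.06, 5.56, 5.43 and 1.47 CPM. C362A libraries 3 and 4 lay above every other library, while the remaining 3 C362A libraries lay inside the wildtype range. The means were 7.80 ± 6.75 CPM in C362A, 5.43 ± 3.57 in the knockout and 3.68 ± 1.92 in wildtype (SD, n = 5). The log2 fold change of C362A against wildtype was 1.09 (SE 0.65, 95% interval -0.31 to 2.48), with a p of 0.397 from edgeR after Benjamini-Hochberg adjustment over all tested genes. Without C362A library 4 it was 0.60.

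S100a9, the larger subunit, had 5.57, 6.41, 22.5, 29.3 and 2.88 CPM in C362A libraries 1 to 5. The knockout libraries had 5.84, 12.1, 18.8, 3.15 and 8.23 CPM, and the wildtype libraries 3.04, 8.83, 8.0, 10.9 and 1.84 CPM. As for S100a8, C362A libraries 3 and 4 and knockout library 3 were the 3 highest, and the groups overlapped throughout. The log2 fold change was 1.04 (SE 0.69) for C362A against wildtype, with an edgeR adjusted p of 0.440, and 0.57 (SE 0.69) for the knockout against wildtype. S100a9 had 1.25 to 2.18 times as many counts as S100a8 in each library (mean 1.72), as RNA counts not scaled by length. The levels varied more than this ratio, 15.9-fold (S100a9) and 11.5-fold (S100a8) from the lowest to the highest library.

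Ngp, neutrophilic granule protein, a relative of the cathelicidins in specific granules, had 3.27, 4.22, 9.86, 12.0 and 1.23 CPM in C362A libraries 1 to 5. The knockout libraries had 4.55, 7.72, 12.0, 2.53 and 5.23 CPM, and the wildtype libraries 2.20, 4.85, 5.98, 7.55 and 1.28 CPM. Knockout library 3 and C362A library 4 shared the top, and C362A library 5 was the lowest of all 15. Group means were 6.11 ± 4.57 CPM in C362A, 6.40 ± 3.63 in the knockout and 4.37 ± 2.61 in wildtype. C362A differed from wildtype by a log2 fold change of 0.49 (SE 0.61, 95% interval -0.82 to 1.80), and without C362A library 4 it was 0.09.

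Camp, which encodes the cathelicidin antimicrobial peptide, had 1.46, 1.76, 1.89, 3.76 and 0.599 CPM in C362A libraries 1 to 5. It had 1.21, 2.64, 4.11, 0.561 and 1.25 CPM in the knockout libraries and 0.839, 1.37, 1.70, 2.29 and 0.373 CPM in wildtype. Knockout library 3 was the highest for Camp, and C362A library 3 lay within the wildtype range. Ltf, lactoferrin, the iron-binding protein of specific granules, had 3.64, 3.76, 10.3, 12.5 and 2.94 CPM in C362A, 4.44, 7.94, 10.9, 2.71 and 6.20 CPM in the knockout, and 2.37, 4.74, 6.84, 7.88 and 2.21 CPM in wildtype. Libraries high for Ngp were high for Ltf. Camp and Ltf had log2 fold changes of 0.54 (SE 0.56) and 0.47 (SE 0.51) for C362A against wildtype, and of -0.05 (SE 0.55) and 0.04 (SE 0.50) for C362A against the knockout.

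Lcn2 encodes lipocalin 2, a specific granule protein that withholds iron from bacteria by binding their siderophores. It had 1.84, 1.05, 4.87, 6.34 and 0.390 CPM in C362A libraries 1 to 5, 1.07, 2.31, 4.08, 0.499 and 2.39 CPM in the knockout libraries, and 0.405, 1.81, 1.90, 2.19 and 0.400 CPM in wildtype. Its lowest values, 0.390 to 0.499 CPM, occurred once or more in each genotype. The log2 fold change was 1.12 (SE 0.74, 95% interval -0.47 to 2.70) for C362A against wildtype and 0.64 (SE 0.74) for the knockout against wildtype. Lcn2 had the widest spread of the 10 genes after the fit, with a biological coefficient of variation of 0.771.

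Retnlg, resistin-like gamma, had 0.809, 0.379, 2.01, 2.75 and 0.210 CPM in C362A libraries 1 to 5. The knockout libraries had 0.197, 0.490, 0.477, 0.218 and 0.625 CPM, and the wildtype libraries 0.173, 0.357, 0.387, 0.752 and 0.187 CPM. In C362A, libraries 1, 3 and 4 lay above all 10 other libraries, while libraries 2 and 5 lay among them. These levels rest on 6 to 95 counts in a library. C362A differed from wildtype by a log2 fold change of 1.74 (SE 0.61, 95% interval 0.46 to 3.03), with an unadjusted p of 0.0110 and an edgeR adjusted p of 0.285. Against the knockout it was 1.60 (SE 0.60, 95% interval 0.33 to 2.86), with an edgeR adjusted p of 0.317. Leaving out C362A library 5, the lowest of that group, gave 2.01 with an edgeR adjusted p of 0.0356 against wildtype. In that fit 1807 genes were called in all, where the fit of all libraries called 15, so the call was not particular to Retnlg. Leaving out C362A library 4 gave 1.21. Over the 15 libraries left out in turn, the edgeR adjusted p ran from 0.0356 to 0.654.

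Mpo encodes myeloperoxidase, the enzyme of azurophil granules that makes hypochlorous acid. It had 3.55, 2.49, 4.75, 5.88 and 0.240 CPM in C362A libraries 1 to 5, 1.85, 2.96, 4.16, 0.811 and 2.89 CPM in the knockout, and 0.578, 2.55, 2.44, 1.63 and 0.266 CPM in wildtype. Its range was the widest of the 10 genes, 24.5-fold between C362A libraries 5 and 4 of the same genotype. The log2 fold change was 1.18 (SE 0.69, 95% interval -0.30 to 2.66) for C362A against wildtype, with an edgeR adjusted p of 0.388, and 0.77 (SE 0.69) for the knockout against wildtype.

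Elane, neutrophil elastase, had 0.716, 0.433, 0.631, 0.926 and 0.0599 CPM in C362A libraries 1 to 5. It had 0.337, 0.544, 1.17, 0.156 and 0.547 CPM in the knockout libraries and 0.231, 0.357, 0.476, 0.458 and 0.0533 CPM in wildtype. These values rest on 2 to 44 counts in a library, so counting error is large in C362A library 5 and wildtype library 5, which had 2 counts each. Its log2 fold changes were 0.82 (SE 0.59) for C362A and 0.83 (SE 0.59) for the knockout, each against wildtype.

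Prtn3, proteinase 3, is the neighbour of Elane and a protease of the same granules. It had 1.25, 1.41, 1.38, 1.16 and 0.779 CPM in C362A libraries 1 to 5, 1.69, 1.12, 2.33, 0.779 and 1.64 CPM in the knockout, and 1.07, 0.987, 1.25, 0.719 and 0.719 CPM in wildtype. Its whole range was 3.25-fold, against 21.9-fold for Elane. C362A library 4, the highest for S100a8, S100a9, Lcn2, Retnlg and Mpo, had less Prtn3 than C362A libraries 1 to 3. The log2 fold change was 0.67 (SE 0.27, 95% interval 0.10 to 1.24) for the knockout against wildtype, with an unadjusted p of 0.0241 and an edgeR adjusted p of 1.0, and 0.33 (SE 0.27) for C362A against wildtype. Its biological coefficient of variation was 0.280, at the 84.4th percentile of the genes tested, while those of the other 9 lay between 0.539 and 0.771, at the 97.4th to 99.3rd percentile.

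Per length, on the deposited RPKM scale, the order of the mean level over 15 libraries was S100a9 (18.3), S100a8 (14.02), Ngp (4.72), Camp (2.80), Lcn2 (2.40), Ltf (2.12), Prtn3 (1.22), Retnlg (1.07), Mpo (0.848) and Elane (0.501). The SDs over libraries were 14.8 for S100a9, 11.3 for S100a8, 2.98 for Ngp and 0.326 for Elane. Within a library, S100a8 lay above Ngp in 15 of 15 libraries, 1.97 to 4.16 times as high, and Ngp above Camp in 15 of 15. S100a9 lay above S100a8, and Mpo above Elane, in 14 of 15. The other neighbours changed places more often, with Camp above Lcn2 in 12, Lcn2 above Ltf in 6, Ltf above Prtn3 in 12, Prtn3 above Retnlg in 11 and Retnlg above Mpo in 9 of the 15 libraries. The calprotectin pair together made up 59.8% to 73.1% of the summed RPKM of the 10 genes in a library. That share was 67.1% ± 5.80 in C362A, 64.2% ± 2.13 in the knockout and 64.5% ± 1.91 in wildtype (SD, n = 5).

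Against wildtype, 0 of the 10 genes passed an edgeR adjusted p of 0.05 in C362A, where 0.0817% of all tested genes did (15 of 18370, all higher). At an unadjusted p under 0.05, 1 of the 10 was higher (Retnlg) and 0 were lower, where 8.08% of all tested genes were higher and 7.8% lower. Not 1 of the 10 had 5 C362A libraries apart from the 5 wildtype libraries, where 0.86% of all genes were apart and higher and 0.299% apart and lower. The median log2 fold change over all tested genes was 0.0066, beside 0.93 for the 10 genes. The largest of the 10 edgeR adjusted p-values was 0.699, for Ngp. All 10 fold changes stayed above 0 under each alternative in which the gene was tested and each library left out in turn, and in DESeq2 none passed, with Elane given no adjusted p.

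In the knockout against wildtype, 0 of the 10 passed the edgeR test, beside 0.0381% of all tested genes (0.0272% higher and 0.0109% lower). Prtn3 alone had an unadjusted p under 0.05, where 1.2% of tested genes were higher and 1.23% lower at that level. No member was apart, where 0.37% of all genes were apart and higher and 0.332% apart and lower. The 95% intervals reached from -0.83 to 1.97 for S100a8 and from -0.75 to 1.87 for Ngp on the log2 scale, so changes of either direction and of more than 2-fold lie within them. Leaving out knockout library 3 alone gave 0.13 for S100a8, 0.18 for S100a9, 0.20 for Ngp, 0.12 for Camp, 0.15 for Ltf, 0.24 for Lcn2, 0.36 for Elane, 0.52 for Mpo, 0.46 for Prtn3 and 0.076 for Retnlg. All 12 hepatocyte markers also had a positive log2 fold change in the knockout, with a median of 1.02, and 0 of them passed. After adding their mean to the fit, an alternative added once the data had been seen, the fold changes of S100a8 (-0.20), S100a9 (-0.16), Ngp (-0.10), Camp (-0.18), Ltf (-0.10), Elane (-0.05), Retnlg (-0.37) and Lcn2 (-0.29) turned below 0, and those of Mpo and Prtn3 were 0.05 and 0.31. In that fit all 10 fold changes of C362A against wildtype stayed above 0, with a median of 0.60. The part of liver tissue in these values was not tested.

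Between C362A and the knockout, 0 of the 10 passed the edgeR test, beside 0.0109% of all tested genes, and 6 fitted log2 fold changes were above 0 and 4 below, with a median of 0.23 (range -0.34 to 1.60). Retnlg alone had an unadjusted p under 0.05, where 6.49% of tested genes were higher and 7.41% lower. No gene of the 10 was apart, where 1.11% were apart and higher and 1.74% apart and lower. Ngp (-0.07), Camp (-0.05), Ltf (0.04) and Elane (-0.0042) had values near 0, with SEs of 0.50 to 0.60. The sign of these 4 changed under at least 7 of the alternatives or libraries left out.

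**Figure D2:**
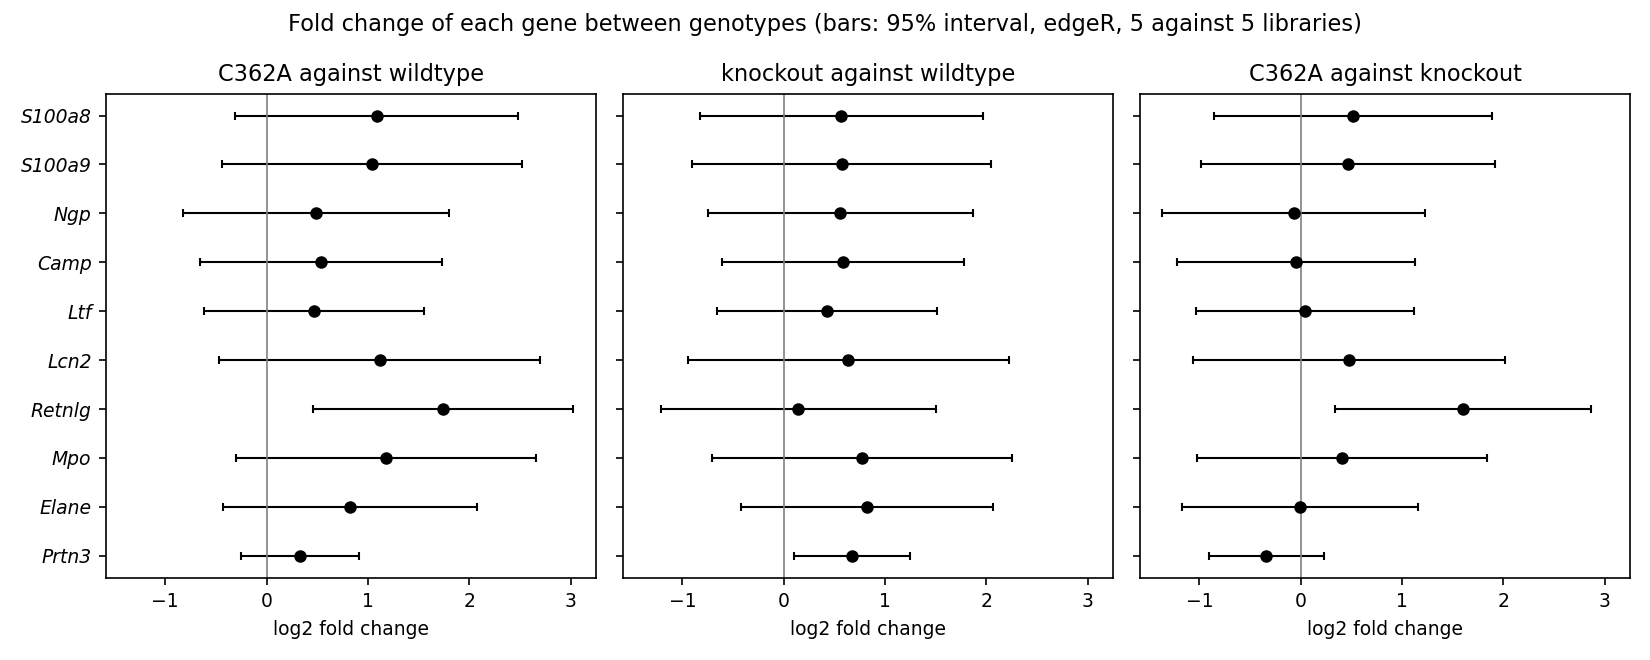
Log2 fold changes of the 10 genes in C362A against wildtype, knockout against wildtype and C362A against knockout, as points with 95% intervals from edgeR (5 against 5 libraries). The intervals of all genes include 0 except Retnlg in both C362A comparisons and Prtn3 in the knockout against wildtype, none of which passed adjustment over 18370 genes.

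The sample ID numbers in the labels form 1 series with no gap, in which the order C362A, wildtype, knockout occurs 2 times. The libraries were split where that order starts again, which gives 2 runs with all 3 genotypes in each. The labels do not name such a split or say what it could stand for. In run 1, with 2 libraries a genotype, the median difference of C362A from wildtype over the 10 genes was -0.33 on the log2 CPM scale, and 1 gene, Retnlg (0.09), was above 0. In run 2, with 3 libraries a genotype, the median was 1.47 and all 10 genes were above 0. The difference between C362A and wildtype was therefore not seen within run 1, which holds C362A libraries 2 and 5 and wildtypes 1 and 3. No test was made within a run, and most of the 10 genes vary together, so they are not 10 separate observations. C362A minus knockout likewise had a median of -1.13 in run 1, with 0 genes above 0, and 0.96 in run 2, with 9 above 0. Knockout minus wildtype had medians of 0.79 and 0.38, with 10 and 9 genes above 0. In an edgeR fit with the run as a block, 0 of the 10 genes passed in any comparison, and the smallest adjusted p was 0.246.

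**Figure D3:**
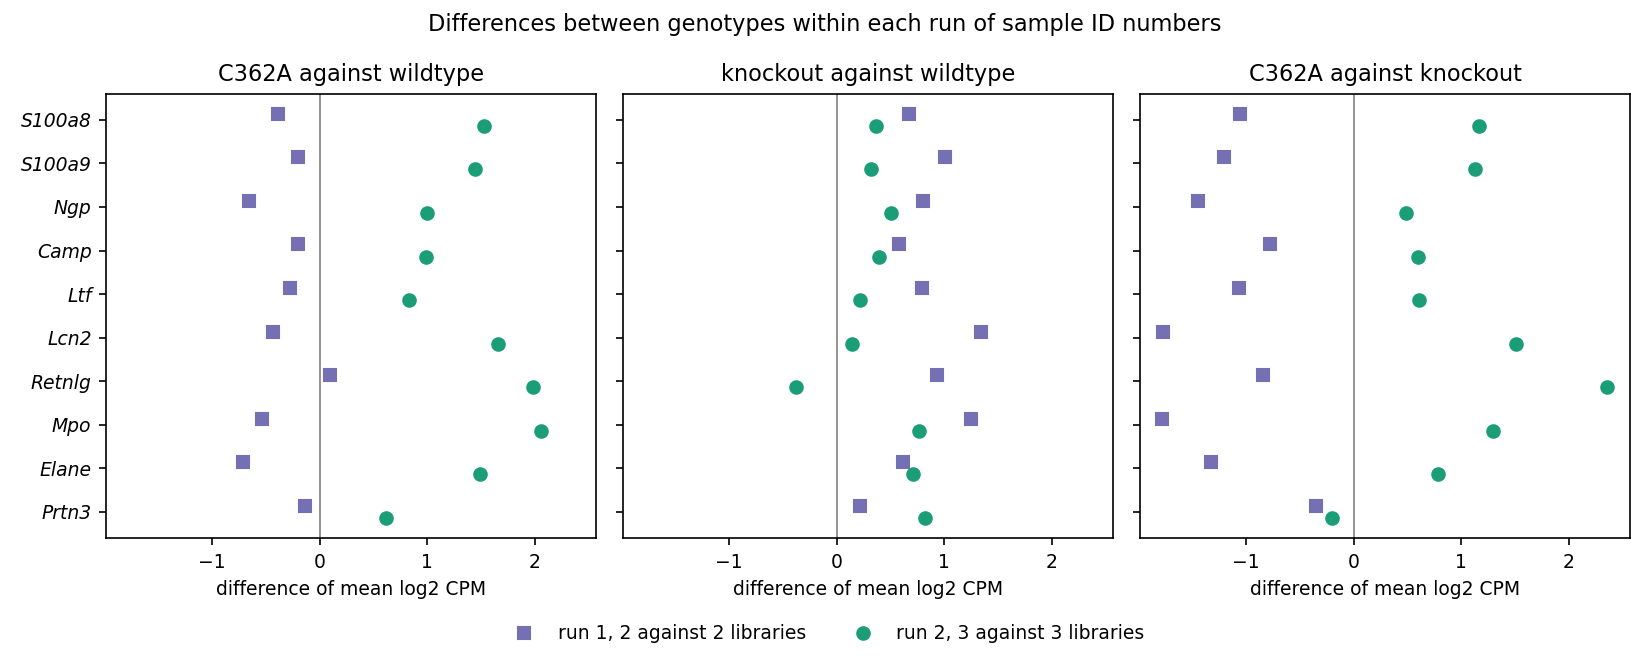
Difference of mean log2 CPM between genotypes for each gene, computed within run 1 (squares, 2 against 2 libraries) and run 2 (circles, 3 against 3 libraries). In C362A against wildtype and C362A against knockout the squares lie mostly left of 0 and the circles mostly right of it, while in knockout against wildtype both lie mostly right.

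The genes varied together across libraries. Among the 9 genes other than Prtn3, all 36 pairs correlated over the 15 libraries, with Pearson's r of log2 CPM from 0.686 to 0.986 (median 0.902) and Spearman's rho from 0.732 to 0.979. Each pair had an adjusted permutation p of at most 0.00587 for r and 0.00299 for rho (100000 permutations, Benjamini-Hochberg over 45 pairs). Without the 2 libraries farthest from the median of the pair's x-axis gene, r lay between 0.687 and 0.988. On deviations from the genotype means r lay between 0.725 and 0.985, so the pattern was there within genotypes. The points share library, depth and dissection.

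S100a8 and S100a9 had an r of 0.986 and a rho of 0.968, S100a8 and Ngp 0.951 and 0.979, and S100a8 and Lcn2 0.969 and 0.946. Prtn3 stood apart, with r of 0.232 to 0.705 over its 9 pairs, of which 6 had an adjusted permutation p under 0.05 by r and 2 by rho. Its closest partner was Elane, with an r of 0.705 (adjusted permutation p 0.00445) and a rho of 0.589 (0.0273). With S100a8 its r was 0.550 (adjusted permutation p 0.0376) and its rho 0.461 (0.0956). That the correlations with Prtn3 differ from the others was not tested.

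**Figure D4:**
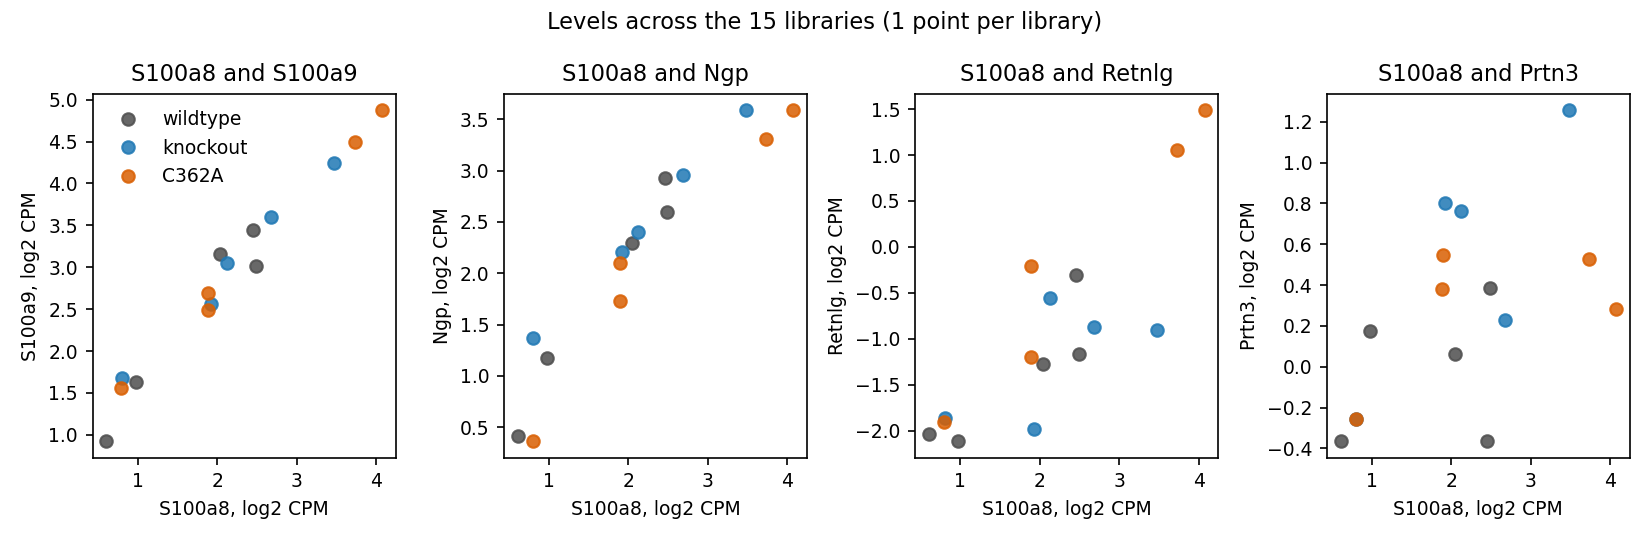
Log2 CPM of S100a9, Ngp, Retnlg and Prtn3 (y axes) against S100a8 (x axis) in the 15 libraries, coloured by genotype. S100a9 and Ngp follow S100a8 along a line in all 3 genotypes (r 0.986 and 0.951), C362A libraries 3 and 4 lie highest for Retnlg, and Prtn3 is scattered (r 0.550).

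Ranked by Pearson's r across the 15 libraries, the genes outside the set most like the mean of S100a8 and S100a9 were Cstdc4 (0.982), Cstdc5 (0.971), Stfa1 (0.962), Stfa2l1 (0.932) and Stfa3 (0.926). These are stefins, inhibitors of cysteine proteases, in 1 mouse cluster of near-identical copies, so unique alignment may have split or lost their reads and their levels are uncertain. The same 5 genes headed the list for the mean of Ngp, Camp and Ltf, with r of 0.881 to 0.955. For Lcn2 the list was Cstdc4 (0.954), Hdlbp (0.943), Cstdc5 (0.938), Copb2 (0.916) and Ank1 (0.912). The mean of Mpo, Elane and Prtn3 had another list, namely Rhag (0.982), Sptb (0.961), Klf1 (0.958), Hemgn (0.954) and Ermap (0.951), which are genes of red cell precursors. Rhag was low in the same libraries as Mpo, with 0.270 CPM in C362A library 5 and 0.240 CPM in wildtype library 5, and it was highest in C362A library 4 at 5.18 CPM. With the same mean, S100a8 and S100a9 had r of 0.866 and 0.865, and the difference was not tested.

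Few other neutrophil genes passed. The r of single genes with the mean of S100a8 and S100a9 ran from -0.13 (Cyba) to 0.90 (Hp) among further specific and gelatinase granule genes, and from -0.23 (Padi4) to 0.96 (Stfa1) among mature neutrophil genes. Of 11 tested further genes of specific and gelatinase granules, 1 passed in C362A against wildtype, with a median log2 fold change of 0.58. This was Mmp9, gelatinase B, at 37.0 CPM in C362A, 31.6 in the knockout and 15.8 in wildtype, with log2 fold changes of 1.23 in C362A (edgeR adjusted p 0.00201) and 1.0 in the knockout (0.0276) against wildtype. Mmp9 lay between 25.4 and 45.1 CPM in the 10 mutant libraries and between 12.0 and 19.6 CPM in the 5 wildtype libraries, and in C362A library 5 it was high (39.8 CPM) where each of the 10 granule genes was low. Of 16 tested mature neutrophil genes, 0 passed, 12 had a positive fold change, and the median was 0.997. The smallest p-values in that list were those of Fpr2, a formyl peptide receptor (1.83, edgeR adjusted p 0.0767), and Mcemp1 (1.82, 0.20). Of the 2 tested azurophil genes beside the 3 above, Ctsg, cathepsin G, had 1.61 and Prss57 0.03, and neither passed.

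The genes that regulate or receive these proteins showed no calls in C362A against wildtype. Among 7 tested transcription factors of granulocyte development, 0 passed and the median log2 fold change was 0.04, with Spi1 (PU.1) at 0.57 and Cebpb at 0.20. Cebpe, a factor of the step to specific granules, had 0 to 18 counts in a library and was not tested. Of 8 tested receptors and partners, 0 passed, and Tlr4, a receptor for calprotectin, had 0.50 and Ager, another, -0.96. Of 8 tested neutrophil attractants, growth factors and adhesion genes, 0 passed, and Icam1 had 0.32 and Csf2 -0.63. The attractants Cxcl1, Cxcl2, Cxcl3 and Cxcl5 had at most 16 counts in a library, and Il17a had 0 in every library. Of 5 tested inhibitors of neutrophil proteases, 0 passed, with Serpina1a at -0.49 and Serpinb1a at -0.22. Of 11 tested other S100 genes, 0 passed, with S100b at -0.61 and S100a4 at 0.52, and of 8 tested epithelial antimicrobial genes 0 passed, with Nos2 at 0.67 and Ang4 at 0.63. In the knockout against wildtype and in C362A against the knockout, 0 genes of these 6 lists passed either.

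Marker lists were set beside the granule genes by the r of their mean log2 CPM with that of S100a8 and S100a9 over 15 libraries. Permutation p-values were adjusted over 20 lists. The 2 highest r were those of further specific and gelatinase granule genes (0.956, rho 0.936) and mature neutrophil genes (0.944, rho 0.911). Further azurophil genes had 0.822 (rho 0.804) and transcription factors of granulocyte development 0.778 (rho 0.718). Pan-leukocyte markers had an r of 0.859 (rho 0.768, adjusted permutation p 0.000267 and 0.00695), macrophage markers 0.739 (0.746, 0.00451 and 0.00828), mast cell and basophil markers 0.746 (0.646, 0.0041 and 0.0269) and hepatocyte markers 0.687 (0.596, 0.0105 and 0.0436). Without the 2 farthest libraries these were 0.812, 0.779, 0.655 and 0.643. Eosinophil markers had 0.690 but few counts, with 1 of 9 tested. Erythroid markers, with globins among them, had 0.349 (adjusted permutation p 0.312), squamous markers 0.460 (0.136) and pancreas markers -0.080 (0.814). Stomach markers had 0.243 (0.543), intestine markers 0.136 (0.773) and megakaryocyte markers 0.057 (0.840). The part of these cells in the levels of the granule genes was not tested.

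**Figure D5:**
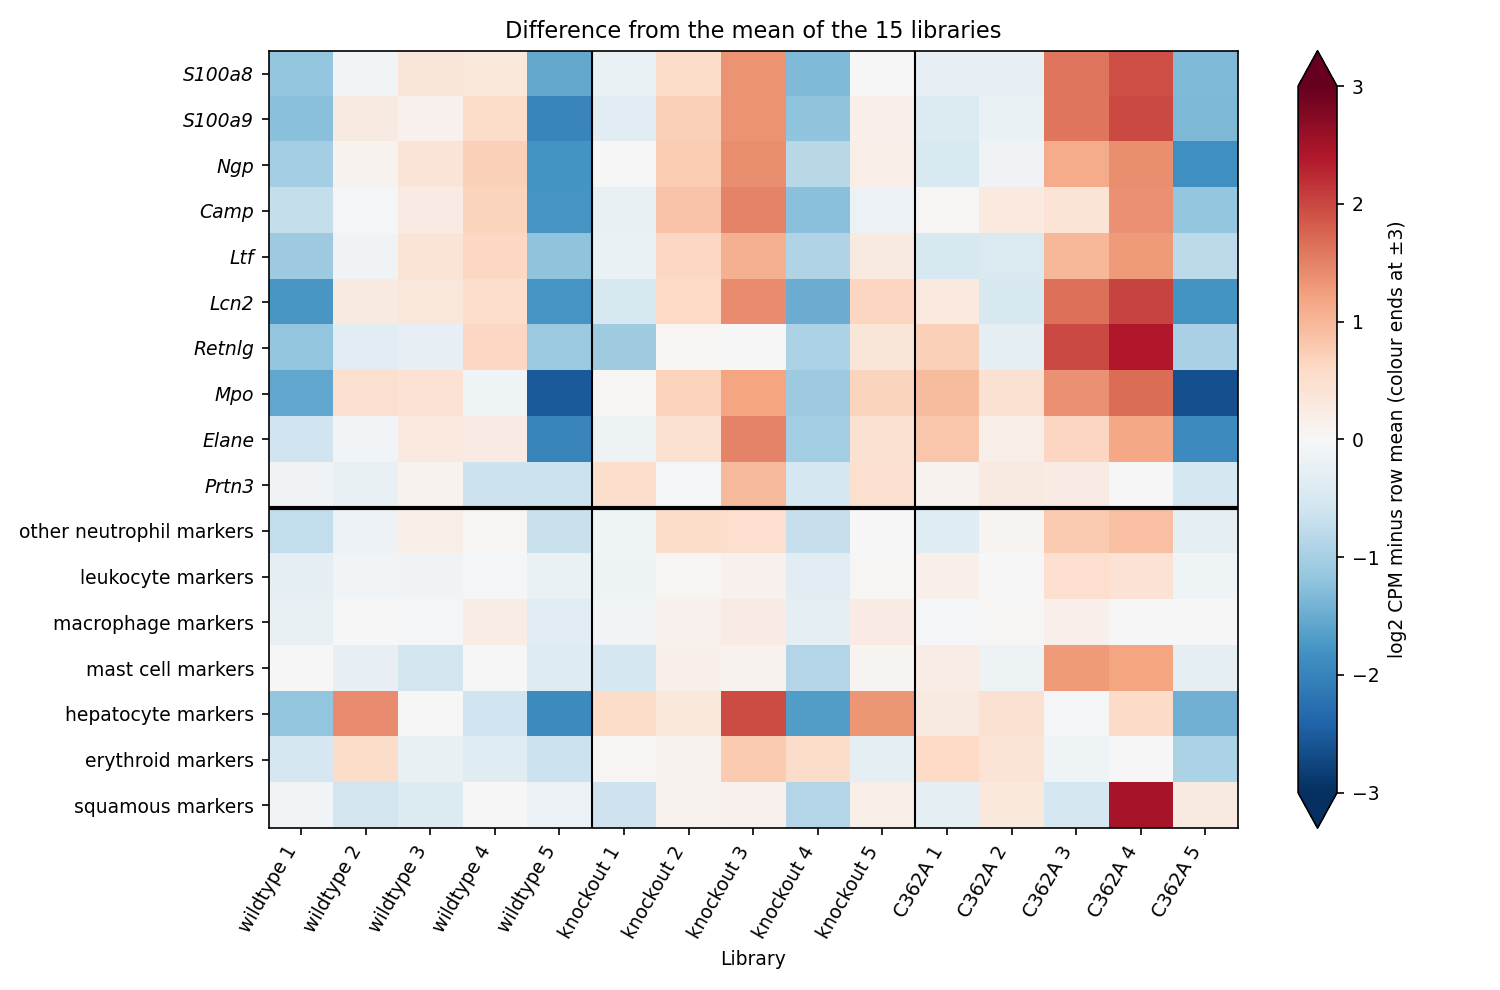
Log2 CPM of the 10 genes (rows above the line) and mean log2 CPM of 7 marker lists (rows below it) in each library, as the difference from the row's mean over 15 libraries. C362A libraries 3 and 4 and knockout library 3 are high and C362A 5, knockout 4, wildtype 1 and wildtype 5 low in most of the 10 rows. Hepatocyte markers are low in those same 4 low libraries. Wildtype 4 is next lowest for hepatocyte markers but not low in most of the 10 rows.

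In C362A against wildtype the marker lists themselves held 1 call, Adgre1 (F4/80) among 15 macrophage markers, with a log2 fold change of 0.75 and an edgeR adjusted p of 0.0361. None passed among 8 leukocyte markers (Cd52 0.56, Ptprc 0.42), 8 tested mast cell and basophil markers (Mcpt4 1.72, Mcpt8 1.48), 12 hepatocyte markers (Serpina1b 0.23, Fga -0.43), 14 erythroid markers (Klf1 0.61, Rhag 1.06), 9 tested squamous markers (Krt13 5.55, Krt5 4.09), 8 tested pancreas markers (Ins2 0.45, Cel 0.47), 4 tested stomach markers (Gkn3 -2.09, Atp4a -0.26), 11 intestine markers (Myh11 0.26, Fabp2 -1.02), 5 tested megakaryocyte markers (Pf4 0.21, Treml1 -0.35) or Siglecf (0.27), the 1 eosinophil marker tested. Krt13 and Krt5 had 53.1 and 27.3 CPM in C362A library 4, and 0.0934 to 0.899 and 0.24 to 0.676 CPM in the other 4 C362A libraries. Alb, the main hepatocyte transcript, had 22096 counts in knockout library 3 and 448 to 823 in C362A library 5, knockout library 4 and wildtype library 5. In these 3 libraries each of the 10 granule genes was at 1 of its 5 lowest levels. Other libraries differed: wildtype 4 had 1408 Alb counts and 39.7 CPM summed over the 10 genes, the highest wildtype sum. C362A library 3 had 3769 counts and 71.4 CPM, and wildtype 2 had 13011 counts and 29.9 CPM. The part of liver tissue in these levels was not tested. Without C362A library 4, knockouts 3 and 5 and wildtype 2, chosen after seeing the data, 0 of the 10 granule genes passed in any comparison. S100a8 then had 0.63 and Retnlg 1.2 for C362A against wildtype.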

How the data were processed

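PolyA RNA of 15 small intestine libraries was sequenced as single-end reads with a TruSeq kit that does not mark strand, per the labels' protocols. Alignment was by GSNAP to GRCm38, per the submitters' processing notes. The aligner's version and the gene annotation used are not stated there. Per the file headers, the deposited counts are uniquely aligned reads in gene models, which lowers genes with near-identical copies. The deposited RPKM values were scaled by the authors with library size factors, per the file headers. They were used to order genes by level and in 2 alternatives (limma on log2 of RPKM plus 1 or 0.1).

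All 15 libraries entered 1 fit in edgeR 4.0.16 (R 4.3.3) with a mean per genotype, TMM factors, filterByExpr (minimum count 10, minimum total 15) and robust quasi-likelihood tests. P-values were adjusted over 18370 genes, and under 0.05 a gene was called. The fit was tested on simulated counts. Every simulated gene had the same biological coefficient of variation, below those of the 10 genes (0.280 to 0.771). The simulation therefore does not show what changes the fit would find in these 10. Libraries held 31896399 to 38532127 counts, so genes under 1 CPM rest on few reads. For pairs of libraries of the same genotype, the chi-square per gene with a mean count of 50 or more was 10.7 to 138, and each counted as 1 sample. Log2 CPM for correlations used a prior count of 2. Permutation tests used SciPy 1.17.1 or NumPy 2.4.6.

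The 10 genes were named throughout. Of each of 20 related lists (221 of 224 entries matched by symbol), called genes were named, or else the 2 with the smallest p in C362A against wildtype. The 5 best correlated genes outside the set were named for 4 references. Other genes named were chosen after their values were seen. The members and lists were chosen with earlier results of these data known. Gene positions and promoters are from RefSeq, GRCm38.p6. Alternatives were other scalings, DESeq2 1.42.0, limma-voom (limma 3.58.1), other filters, a threshold of 0.01, fits of the compared groups alone, a block for the runs of sample ID numbers, an erythroid or hepatocyte covariate, and libraries left out.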

Additional observations from a re-analysis of the deposited data

How the results depend on the processing

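No paired analysis was possible because the labels give no replicate numbers. For each of the 10 genes, C362A against wildtype kept its sign under the 13 to 15 alternatives that gave it a value and with each library left out in turn, but within run 1 alone 9 of the 10 were below 0. Over these fits, 0 of the 10 passed in any comparison, except Retnlg without C362A library 5 (2.01, edgeR adjusted p 0.0356), where 1 of the 10 passed. The cause was not tested. The count of all called genes depended far more on the library left out: 7 to 1807 for C362A against wildtype, 2 to 805 for C362A against knockout (both highest without C362A library 5) and 1 to 8 for knockout against wildtype. Called genes in these 3 comparisons were 56, 31 and 13 in DESeq2, and 4, 1 and 1 without the 4 libraries with squamous or the most hepatocyte markers. For C362A against wildtype there were 7 at a threshold of 0.01 and 1 with at least 5 CPM in 5 libraries, where Ngp, Ltf, S100a8 and S100a9 alone of the 10 were tested. For the knockout against wildtype these were 1 and 2, with 1 called gene when only these groups were fitted and 1 with either covariate. For C362A against knockout there were 4 with only these groups, 5 with RPKM plus 1 and 4 with RPKM plus 0.1.

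Signs changed mostly where values were near 0. In C362A against knockout, they changed for Elane by library totals (0.0285), Camp and Ltf in limma-voom (0.0267 and -0.0846), Camp, Ltf and Elane with RPKM plus 1 (0.0201, -0.0227 and 0.008), Camp and Ltf with RPKM plus 0.1 (0.0463 and -0.0563) and Ltf with the run block (-0.0434). They also changed for Ngp, Camp and Elane with the erythroid covariate (0.12, 0.18 and 0.19) or the hepatocyte covariate (0.28, 0.38 and 0.53), and for Elane and Prtn3 without the 4 libraries (0.39 and 0.0104). With libraries left out in turn, the ranges there were -0.0469 to 0.86 for S100a9, -0.46 to 0.28 for Ngp, -0.45 to 0.42 for Camp, -0.32 to 0.31 for Ltf, -0.27 to 0.47 for Elane and -0.0311 to 0.88 for Lcn2. In knockout against wildtype, Retnlg ran from -0.0704 to 0.55 and was -0.28 without the 4 libraries. The hepatocyte covariate gave -0.20 for S100a8, -0.16 for S100a9, -0.10 for Ngp, -0.18 for Camp, -0.10 for Ltf, -0.0535 for Elane, -0.37 for Retnlg and -0.29 for Lcn2. The hepatocyte covariate and the 4 libraries were chosen after seeing the data. Counting error is largest for Elane and Retnlg, with 2 and 6 counts in their lowest libraries.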

Other observations

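The proportions among the granule genes can be read within a library, where depth cancels. The comparison of Retnlg with Ngp was chosen after its values were seen and is given with no test. Retnlg had 0.248, 0.0897, 0.204, 0.230 and 0.171 counts per Ngp count in C362A libraries 1 to 5. In the knockout libraries it had 0.0432, 0.0634, 0.0398, 0.0864 and 0.119, and in the wildtype libraries 0.0789, 0.0734, 0.0647, 0.0996 and 0.146. In C362A, 4 of 5 libraries lay above all 10 others, library 5 with its low level among them, and library 2 did not. The ratio in C362A library 5 rests on 7 Retnlg and 41 Ngp counts. That in wildtype library 5, the highest of the 10 others, rests on 7 and 48, so counting error is large in both. How often ratios of 2 genes lie this way over all tested genes was not computed. S100a9 had 1.52 to 2.45 counts per Ngp count in C362A (mean 2.06 ± 0.418, SD, n = 5), 1.25 to 1.57 in the knockout (1.45 ± 0.167) and 1.34 to 1.82 in wildtype (1.48 ± 0.193). The groups overlapped for both ratios. Lcn2, Mpo, Ltf and Camp were also set against Ngp, and the groups overlapped for each. Lcn2 had 0.25 to 0.562 counts per Ngp count in C362A, 0.198 to 0.458 in the knockout and 0.184 to 0.373 in wildtype. For Mpo these were 0.195 to 1.09, 0.321 to 0.552 and 0.208 to 0.525.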
